A study of Mus musculus with 12 samples.

Results

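The 7 genes described here encode surface proteins of the Ly6/uPAR family, and they are Psca, Lypd2, Ly6d, Ly6a, Ly6e, Lypd3 and Plaur. They were taken by name from the 53715 gene identifiers of the deposited gene tables, and all 7 passed the filter on low counts that left 14473 genes for testing. The 7 were selected on earlier results of these same libraries, in which Psca and Lypd2 stood among the genes that differed with the SPDEF vector and Ly6d among those that differed with the knockout. Their values in those comparisons are therefore a description. Whether a value passed the threshold there is stated only to place it among all genes and supports nothing further. The libraries came from mT6 and mT69a, organoid lines grown in Matrigel from pancreatic ductal adenocarcinomas (PDA) of C57/Bl6 mice. Both lines carry the genotype KrasLSLG12D/+; Trp53LSLR172H/LOH; Pdx1-Cre, in which Pdx1-Cre acts in the pancreatic epithelium. For each line there were 2 libraries of a clone edited at Rosa26 and carrying the empty vector (control), 2 of an Spdef knockout clone with the empty vector (knockout), and 2 of the same Spdef knockout clone with an SPDEF overexpression vector (vector). Every group had thus been through gene editing and carried a vector, and the loss of Spdef cannot be told apart from other properties of the single knockout clone of a line. The labels do not say whether the 2 replicates of a group were separate cultures. The errors below therefore measure the spread between libraries, which may be technical. For each gene all groups of both lines shared the same estimate of this spread, so an error is not that of the compared libraries alone.

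Ly6/uPAR proteins share a compact, disulfide-bonded fold known as the three-finger or LU domain. Most are held in the outer leaflet of the plasma membrane by a glycosylphosphatidylinositol (GPI) anchor, and some are secreted. Many of the mouse genes lie side by side on chromosome 15. The family includes cell surface markers used in flow cytometry (Ly6a, also called Sca-1, and Ly6g), modulators of nicotinic acetylcholine receptors (Lynx1, Slurp1), and the receptor for the protease urokinase (Plaur, uPAR). Psca is an antigen of prostate and gastric epithelium that is studied in pancreatic cancer as a surface target.

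The 12 libraries held between 9094295 and 28903831 expected counts each. The epithelial markers Epcam, Krt8, Krt18, Krt19, Cdh1 and Cldn7 were present in every library, with a summed level of 2044 to 4492 TPM, RSEM's length-corrected transcript abundance. Fibroblast, endothelial and acinar marker lists summed to at most 0.23, 0.37 and 1.25 TPM. The 8 immune markers summed to 7.99 to 25.6 TPM, almost all of it Cd14 and Cd68, while Ptprc did not exceed 0.12 TPM and Adgre1 and Cd3e were listed at 0 in all libraries. Reads of Spdef itself numbered 30 and 29 in control mT6 and 0 and 2 in knockout mT6. In mT69a it had only 2 and 4 counts in the control against 2 and 0 in the knockout, so its level does not check the labels of that line. The libraries labelled as carrying the SPDEF vector had 0 to 2 counts of mouse Spdef, so these counts do not show expression from the vector, and the vector groups are named by their labels throughout.

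Of the 7 genes, 5 lie on mouse chromosome 15 (GRCm38, GENCODE M21 annotation) within 283.2 kb. Psca occupies chr15:74714839-74717069 on the plus strand, Lypd2 chr15:74732247-74734329 and Ly6d chr15:74762056-74763620 on the minus strand, Ly6e chr15:74955051-74959905 on the plus strand and Ly6a chr15:74994877-74998031 on the minus strand. The remaining pair lies on chromosome 7, with Plaur at chr7:24462484-24475968 and Lypd3 at chr7:24636550-24641118, both on the plus strand and 160.6 kb apart. Lypd3 overlaps an antisense gene, Gm26550, which had at most 8 counts in a library. None of the other 6 overlaps another annotated gene. The library kit named in the labels preserves strand, but whether strand was used in counting is not stated.

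Levels were compared between genes on the TPM scale, which corrects for transcript length. Ly6a and Ly6e together made up 69.4% to 80.6% of the summed TPM of the 44 family genes found in the files, and both stood at or above the 99.1 percentile of expressed genes in every group. Plaur and Ly6d were at intermediate levels, with a median over the 12 libraries of 63.5 and 51.4 TPM. Lypd3 was the lowest, with a median of 0.92 TPM and 2 to 59 counts in a library. Psca, Ly6d and Lypd3 each had 1 annotated transcript, the main Lypd2 transcript took a median of 92% of that gene, and Ly6e-215 took 75.7%. Ly6a was spread over Ly6a-204 (a median of 50.2%) and Ly6a-201 (34.4%). Of the 50-base words in Ly6a transcripts, 19% also occur in transcripts of Ly6c1, Ly6c2, Ly6i or I830127L07Rik, so part of its reads had to be divided among genes by the authors' counting. The other 6 genes shared no such word with another gene.

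**Figure D1:**
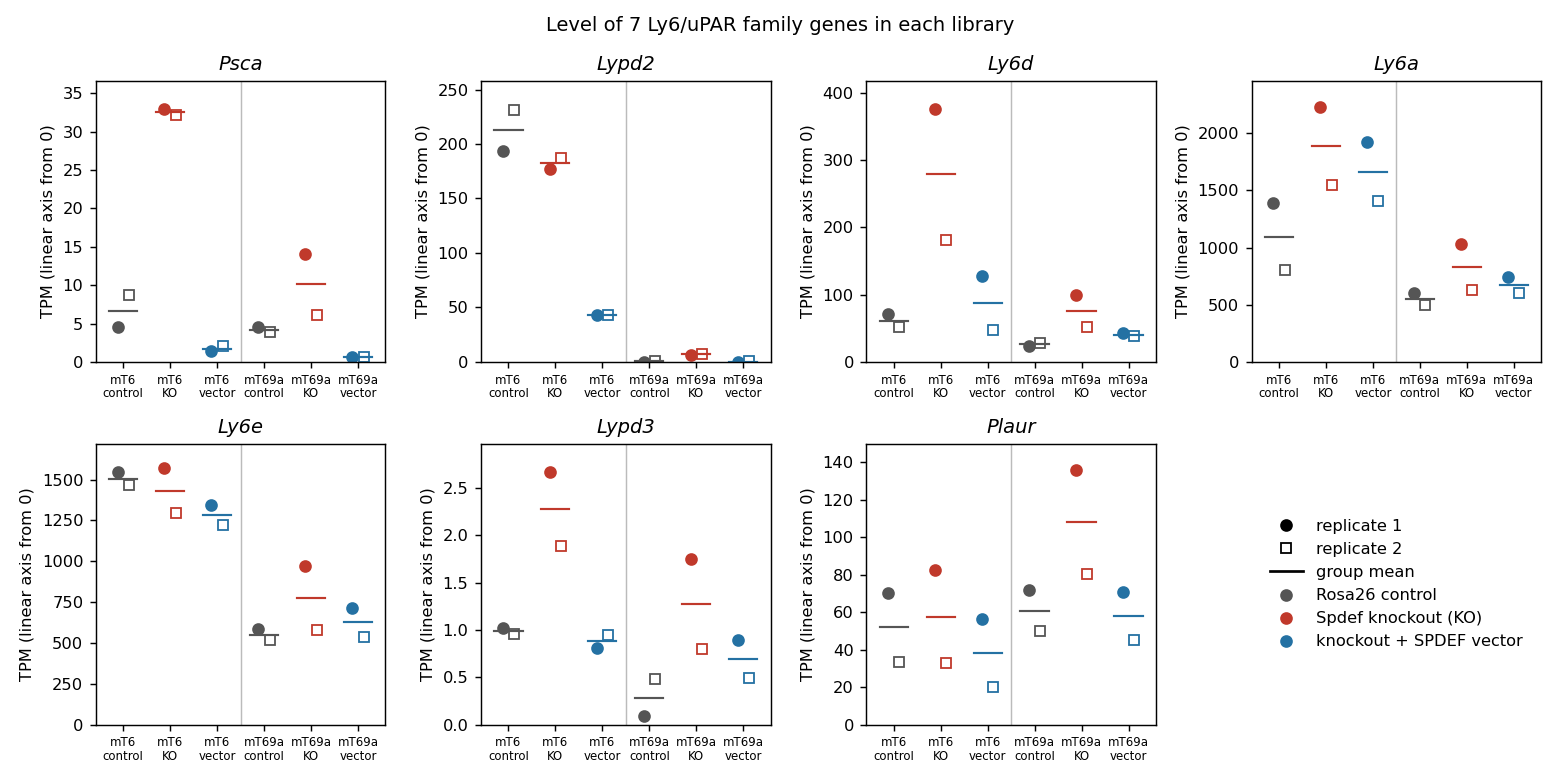
TPM of each of the 7 genes in all 12 libraries, on linear axes that start at 0, with filled circles for replicate 1, open squares for replicate 2 and a bar for the group mean. Psca is highest in the mT6 knockout at 32.9 and 32.2 TPM, Lypd2 is high in mT6 and near 0 in mT69a, and Plaur is higher in replicate 1 than in replicate 2 of every group.

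Psca was higher with the Spdef knockout and lowest with the SPDEF vector in both lines. In mT6 the control libraries had 4.54 and 8.68 TPM, the knockout 32.9 and 32.2, and the vector 1.37 and 2.03. In mT69a the control had 4.54 and 3.85 TPM, the knockout 14.1 and 6.07, and the vector 0.67 and 0.69. Neither line showed any overlap between its 3 groups. On the log2 scale the knockout differed from the control by 2.24 (SE 0.34) in mT6 and 1.10 (SE 0.36) in mT69a. Only the mT6 difference passed the threshold, an adjusted p under 0.05 in edgeR's quasi-likelihood test over all 14473 genes; with the replicate number as a block the mT69a difference, 1.13, passed as well, as it did without a filter on low counts and without either mT6 control library. Vector libraries were below knockout libraries by a log2 difference of -4.21 (SE 0.42) in mT6 and -3.65 (SE 0.46) in mT69a. They also lay below their own controls, by -1.97 (SE 0.44) and -2.55 (SE 0.49). The mT6 knockout call was lost without knockout replicate 2 (values from 1.85 to 2.91 over the 12 fits that left out 1 library), and both calls against the knockout held in all 12. The calls against the control were lost in mT6 without control replicate 2 or either vector library, and in mT69a without vector replicate 1. These vector values rest on 8 and 12 counts in mT6 and 7 and 6 in mT69a. In summed counts the vector was 19-fold below the knockout in mT6 (95% interval for counting error 12.2 to 31.3) and 13.5-fold in mT69a (7.7 to 25.8). Ranked by group mean, the mT69a knockout, mT6 control and mT69a control were neighbours whose ranges overlapped (10.1, 6.61 and 4.2 TPM). The mT6 knockout above them and both vector groups below them stood apart.

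Lypd2 was high in mT6 and low in mT69a. It reached 194 and 232 TPM in the mT6 control and 177 and 188 in the mT6 knockout, and 43.4 and 43.3 in the mT6 vector. In mT69a it was listed at 0 and 1.12 TPM in the control, 6.33 and 7.36 in the knockout, and 0 and 0.46 in the vector. The mT6 knockout differed from its control by a log2 value of -0.21 (SE 0.34), short of the threshold, whereas the mT69a knockout was higher by 3.39 (SE 0.72) and passed. That mT69a contrast compares 31 counts in each knockout library with 0 and 6 in the control, a ratio of 10.6 (95% counting interval 4.6 to 30). With the vector, Lypd2 was lower than in the knockout in both lines, by -2.08 (SE 0.37) in mT6 and -4.72 (SE 0.89) in mT69a. The mT69a vector had 2 counts against 62, 28.8-fold fewer after scaling (7.64 to 243). Against the control, the mT6 vector was lower by -2.29 (SE 0.37), and in mT69a the 2 counts of the vector against 6 of the control gave a ratio of 2.72 with an interval of 0.486 to 27.5 that includes no difference. The mT69a call of knockout against control did not hold without control replicate 1 or knockout replicate 2 (values from 2.37 to 7.99). The call of vector against knockout in mT6 was lost when any 1 of the 4 libraries compared was left out (values from -2.22 to -1.91), and that in mT69a without knockout replicate 2 or vector replicate 1 (values from -8.02 to -3.50).

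Ly6d, which marks early B-cell progenitors and stratified epithelium, was highest in the knockout of each line. Its levels in mT6 were 70.7 and 51.6 TPM in the control, 376 and 181 in the knockout, and 127 and 46.9 in the vector. In mT69a they were 23.1 and 28.7 TPM in the control, 99.5 and 51.2 in the knockout, and 43.4 and 37.9 in the vector. Knockout and control did not overlap in either line, and neither did knockout and vector, but the mT6 vector libraries lay on both sides of the control. Knockout against control was 2.16 (SE 0.45) in mT6, which passed, and 1.36 (SE 0.45) in mT69a, which did not. The mT6 call was lost in 10 of the 12 fits that left out 1 library, with values between 1.70 and 2.52. Vector against knockout was -1.60 (SE 0.44) in mT6 and -0.66 (SE 0.44) in mT69a, neither past the threshold. DESeq2 called the knockout difference in mT69a and the vector difference in mT6 as well.

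Ly6a (Sca-1), a marker of stem and progenitor cells in several mouse tissues and an interferon-responsive gene, was abundant throughout. Values were 1390 and 801 TPM in the mT6 control, 2230 and 1548 in the knockout and 1924 and 1405 in the vector. The mT69a libraries had 602 and 494 TPM in the control, 1034 and 630 in the knockout and 741 and 601 in the vector. Both knockout libraries exceeded both control libraries in each line, while knockout and vector overlapped in both. Knockout against control was 0.78 (SE 0.23) on the log2 scale in mT6 and 0.45 (SE 0.23) in mT69a, and neither passed; the mT6 value passed with the replicate block (0.80), in DESeq2 (0.79) and without mT6 control replicate 1 (1.16). The vector differed from the knockout by -0.14 (SE 0.23) and -0.10 (SE 0.23). Against the control the mT6 vector differed by 0.65 (SE 0.23), short of the threshold; it passed with the replicate block (0.66), without a filter on low counts (0.61) and without control replicate 1 (1.02).

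Ly6e, another interferon-responsive member and a cell surface factor that restricts the entry of some viruses, was high in both lines. It stood at 1545 and 1466 TPM in the mT6 control, 1569 and 1297 in the knockout and 1347 and 1220 in the vector, and at 583 and 518, 972 and 578, and 713 and 538 TPM in the same order in mT69a. Knockout against control was -0.07 (SE 0.14) in mT6 and 0.33 (SE 0.14) in mT69a, neither past the threshold; the latter passed with the replicate block. Vector against knockout was -0.10 (SE 0.14) and -0.09 (SE 0.14). Knockout replicate 1 of mT69a, the highest mT69a library for both Ly6a and Ly6e, also had the highest summed level of the 35 interferon response genes. That sum was 580 TPM there and 88.4 in knockout replicate 2, against 59.1 and 50.9 in the mT69a control, 276 and 155 in the mT69a vector and 81.5 to 129 over the mT6 libraries. Of the 32 interferon genes measured, 17 were higher in the mT69a knockout and none lower (8.6% of all genes passed there), with a median log2 difference of 3.65 against -0.005 for all genes, and in mT6 none passed in edgeR's test in either direction (median -0.14; 1 had an unadjusted p below 0.05). With the replicate block, 8 of those 17 calls were lost. The part of the interferon genes in the Ly6a and Ly6e values was not tested.

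Lypd3 (C4.4A), a structural homolog of the urokinase receptor found in squamous epithelium, was near the limit of detection. In mT6 the control had 1.02 and 0.96 TPM, the knockout 2.67 and 1.89, and the vector 0.81 and 0.95; in mT69a the control had 0.09 and 0.48, the knockout 1.75 and 0.80, and the vector 0.89 and 0.49. Both knockout libraries exceeded the control and the vector libraries of mT6, and in mT69a they exceeded the control only (in CPM, 1.99 and 1.22, they also exceeded the vector at 1.19 and 0.812). The log2 difference between knockout and control was 1.17 (SE 0.53) in mT6 and 1.91 (SE 0.62) in mT69a, and between vector and knockout -1.29 (SE 0.57) and -0.68 (SE 0.57). None of these differences passed the threshold; with the replicate block the mT69a knockout difference (1.93) did. That value was 3.60, past the threshold, without control replicate 2, which leaves control replicate 1 with its 2 counts.

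Plaur, the receptor that concentrates the protease urokinase at the cell surface, was higher in replicate 1 than in replicate 2 of every group. The mT6 control had 70.5 and 33.2 TPM, the knockout 82.3 and 32.7, and the vector 56.5 and 19.8. The mT69a control had 71.6 and 50.1 TPM, the knockout 135.6 and 80.5, and the vector 70.9 and 45.2. The ratio of replicate 1 to replicate 2 was 1.43 to 2.85 in TPM; in CPM it was 1.94 to 2.8 in mT6 and 1.23 to 1.38 in mT69a. For Ly6a and Ly6e it was 1.22 to 1.73 and 1.05 to 1.68 in TPM but 0.998 to 1.59 and 0.944 to 1.24 in CPM, so their order between replicates depended on the scale. The epithelial marker Krt19 showed the same order in all 6 groups, and the mitochondrial share of counts the reverse, at 12.7% to 15.5% in replicate 1 and 18.6% to 27.1% in replicate 2. Their part in the Plaur values was not tested. In mT69a both knockout libraries exceeded both control libraries, with a log2 difference of 0.74 (SE 0.52), and within replicates the knockout was 1.68 and 1.66 times the control in CPM. The mT6 difference was 0.13 (SE 0.52), and its sign changed when single libraries were left out. Vector against knockout was -0.51 (SE 0.53) in mT6 and -0.73 (SE 0.52) in mT69a. No Plaur contrast passed the threshold. The mT69a knockout difference passed with mT69a fitted alone (0.73) and, as did the mT69a vector difference and both averages over the lines, without a filter on low counts.

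**Figure D2:**
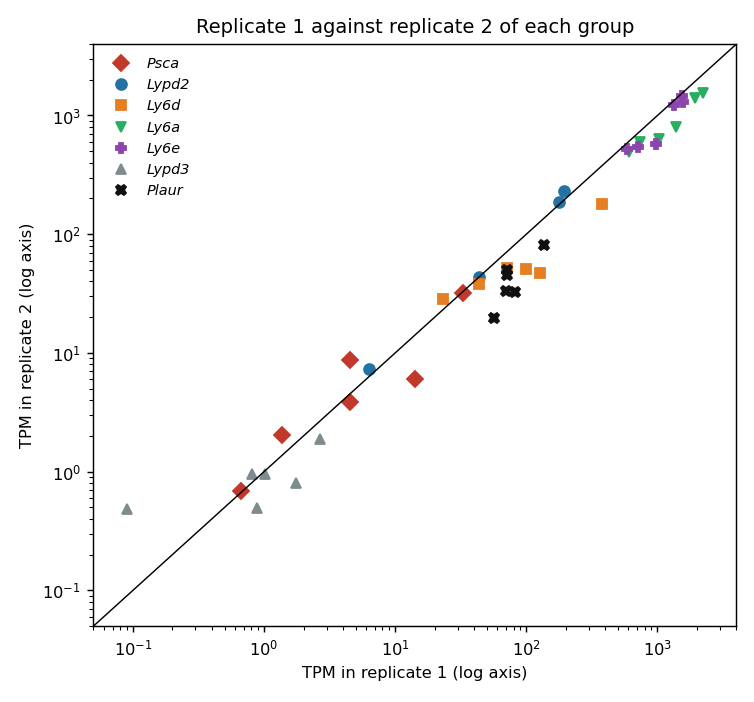
TPM of each gene in replicate 1 (horizontal) and replicate 2 (vertical) of each of the 6 groups, on log axes with the line of equality; 2 groups in which Lypd2 was listed at 0 in replicate 1 are not drawn. All 6 Plaur points lie below the line, with replicate 1 up to 2.85 times replicate 2, while Psca and Lypd3 points fall on both sides.

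Promoter sequences were at hand for 2 of the 7 genes, Plaur and Lypd3, and are shown because SPDEF, named on the vector's label, is a DNA-binding ETS factor. Beside them are Lypd5, 1 of 2 other family genes that rose with the vector against the knockout, and Ly6g, the other family gene with the lowest adjusted p in the knockout. Each run is the 250 bases before the RefSeq transcription start (GRCm38.p6, plus strand), 5′ to 3′, in lower case, at chr7:24462233-24462482 for Plaur, chr7:24636320-24636569 for Lypd3, chr7:24348946-24349195 for Lypd5 and chr15:75155011-75155260 for Ly6g. Capitals mark matches on either strand to CCGGAA (an ETS core), CCGGAT (the variant core that SPDEF is known to accept) or TGANTCA (the AP-1 element).
Plaur: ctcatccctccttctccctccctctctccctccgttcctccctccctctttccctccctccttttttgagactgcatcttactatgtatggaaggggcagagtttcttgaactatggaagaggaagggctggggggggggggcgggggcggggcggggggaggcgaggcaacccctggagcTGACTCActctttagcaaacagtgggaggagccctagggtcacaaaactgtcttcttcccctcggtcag
Lypd3: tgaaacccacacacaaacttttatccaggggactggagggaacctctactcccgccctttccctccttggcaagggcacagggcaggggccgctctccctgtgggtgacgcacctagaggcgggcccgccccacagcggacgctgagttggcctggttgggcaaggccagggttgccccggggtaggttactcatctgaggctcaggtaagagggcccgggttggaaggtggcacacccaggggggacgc
Lypd5: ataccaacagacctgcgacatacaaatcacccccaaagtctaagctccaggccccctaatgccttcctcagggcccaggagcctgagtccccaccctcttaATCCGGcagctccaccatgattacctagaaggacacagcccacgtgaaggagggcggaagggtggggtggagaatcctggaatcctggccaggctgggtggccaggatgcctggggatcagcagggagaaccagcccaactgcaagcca
Ly6g: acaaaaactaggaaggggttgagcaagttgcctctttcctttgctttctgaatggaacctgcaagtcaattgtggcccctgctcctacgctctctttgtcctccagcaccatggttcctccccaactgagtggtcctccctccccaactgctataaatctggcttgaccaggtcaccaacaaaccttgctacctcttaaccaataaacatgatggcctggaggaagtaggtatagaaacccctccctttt
The Plaur window held 1 match to TGANTCA, beginning 69 bases before the start, and the Lypd5 window 1 match to CCGGAT on the minus strand, beginning 149 bases before it. Among 32851 promoter windows of the same length, 6.75% held TGANTCA, 4.94% CCGGAT and 12% CCGGAA. No match was found in the Lypd3 window or in the windows of either annotated Ly6g start, which says only that these letters are not in them. CCGGAA and CCGGAT differ only in their last letter, neither overlaps TGANTCA in these windows, and a match is a description of the letters.

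Across the 7 genes, 2 passed the threshold in the mT6 knockout against its control (Psca and Ly6d, both higher), where 3.23% of all genes passed. In mT69a 1 passed (Lypd2, higher) against 8.6% of all genes. With the vector against the knockout, Psca and Lypd2 were lower in each line, 2 of 7 in mT6 where 2.69% of genes passed and 2 of 7 in mT69a where 4.25% passed. Vector against control gave the same 2 genes as lower in mT6 (8.61% of genes) and Psca alone in mT69a (12.4%). Averaged over the lines, Psca (1.67, SE 0.25) and Ly6d (1.76, SE 0.32) were higher in the knockout (5.6% of genes passed), and Psca (-3.93, SE 0.31) and Lypd2 (-3.40, SE 0.46) were lower with the vector (7.77%). The averaged Ly6d call was lost without mT6 control replicate 2, mT69a control replicate 1 or mT69a knockout replicate 1 (values from 1.53 to 1.93 over 12 fits), and the other 3 held in all 12. With the replicate block Lypd2 (1.60), Lypd3 (1.54) and Ly6a (0.62) passed in the averaged knockout too. For Lypd2 that average joins -0.21 in mT6 and 3.396 in mT69a. Since the genes were selected on these contrasts, nothing is read from the comparison of these counts with the shares. By levels in CPM, both knockout libraries exceeded both control libraries for 4 of the 7 genes in mT6 (21.3% of all genes) and for 7 in mT69a (24.1%), and both vector libraries lay below both knockout libraries for 5 genes in mT6 (18.3%) and 5 in mT69a (25.9%). In TPM these counts were 4, 6, 4 and 4, since Ly6e overlapped in the mT69a knockout and mT6 vector contrasts and Lypd3 in the mT69a vector contrast. The knockout and vector contrasts share the knockout libraries, so a high knockout value enters both.

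**Figure D3:**
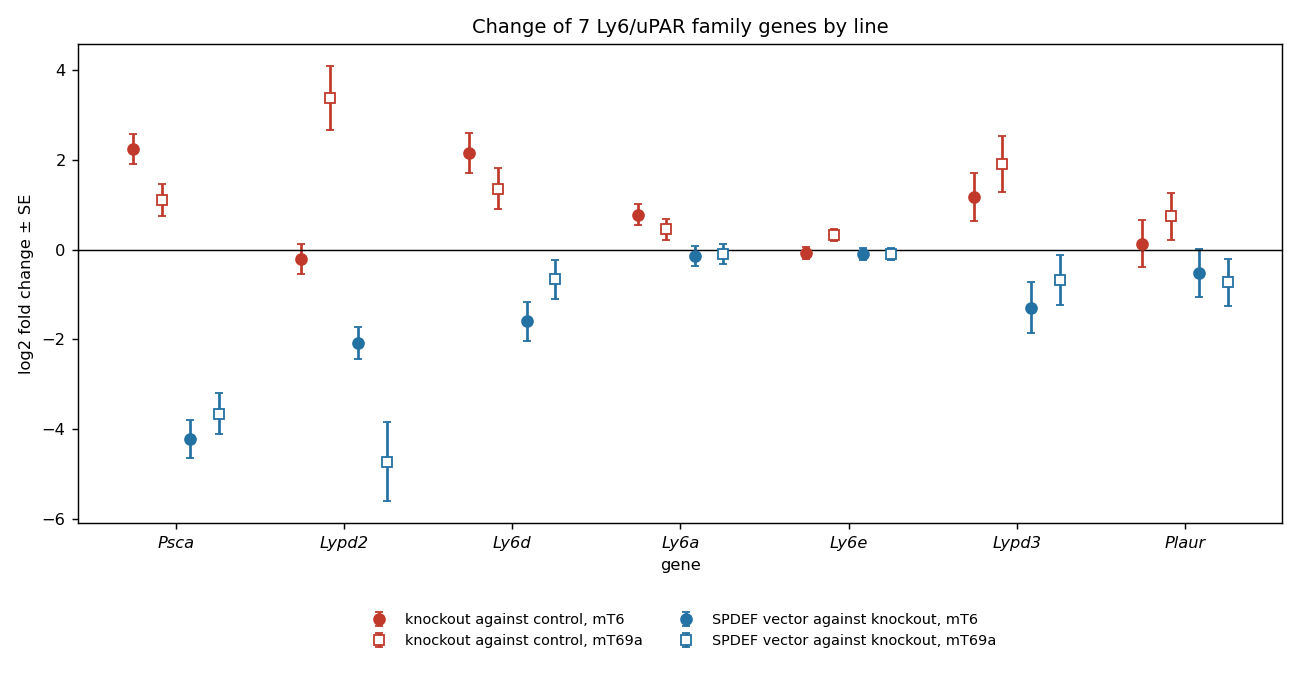
Log2 fold change with its standard error for the 7 genes, for knockout against control (red) and SPDEF vector against knockout (blue), with filled circles for mT6 and open squares for mT69a. Psca lies above 0 in the knockout and near -4 with the vector in both lines, Lypd2 differs between the lines in the knockout, and Ly6e lies near 0 throughout.

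The lines differed in their baseline levels, a comparison in which 28.2% of all genes passed. Among the 7, Lypd2 was lower in the mT69a control than in the mT6 control, with 0 and 6 counts against 807 and 2201 (log2 difference -8.43, SE 0.58, adjusted p = 1.05e-05). Ly6e was lower by -1.45 (SE 0.14, adjusted p = 4.99e-05), and Ly6a by -0.99 (SE 0.23, adjusted p = 0.00967). The Ly6a call was lost without mT6 control replicate 1 or either mT69a control (values from -1.28 to -0.61). Ly6d (-1.22, SE 0.45, adjusted p = 0.0755), Lypd3 (-1.70, SE 0.61, adjusted p = 0.0634), Psca (-0.72, SE 0.36, adjusted p = 0.165) and Plaur (0.21, SE 0.52, adjusted p = 0.802) did not pass. With the replicate block, Lypd3 (-1.71) passed too. The knockout effect itself differed between the lines for Lypd2 alone among the 7 (log2 difference of differences 3.59, SE 0.80, adjusted p = 0.0269), where 6.62% of genes passed. Since Lypd2 was selected on these same libraries, that value too is a description. For the vector against the knockout none of the 7 passed edgeR's test of a difference between the lines (1 had an unadjusted p below 0.05, and DESeq2 and limma called 0), where 0.0138% of genes, 2 in number, passed; for Psca that difference was 0.56 (SE 0.70) and for Lypd2 -2.64 (SE 1.10), with adjusted p-values of 1 and 0.952.

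Of the 37 other family genes found in the files, 14 were measured. Their list was fixed by family membership, though with earlier results of these libraries known. In the knockout against the control, averaged over the lines, 6 of the 14 rose and none fell, where 5.6% of all genes passed, with a median log2 difference of 0.95 against -0.003 for all genes. With the vector against the knockout, 2 rose and 2 fell (7.77% of all genes passed; median -0.17 against -0.02). With the vector against the control, Ly6g, Ly6f and Lypd5 rose in both lines, Ly6c1, Ly6c2 and Lypd1 rose in mT6 and Lypd8 fell in mT69a (8.61% and 12.4% of all genes passed). These 14 passed a filter that a gene could meet through its highest group alone, and they are not all family genes.

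Ly6g, the neutrophil marker at chr15:75155240-75159126, had the lowest adjusted p of these in the average over the lines (1.97, SE 0.15, adjusted p = 4.69e-05). It had 18.7 and 14.1 TPM in the mT6 control, 62.4 and 56.0 in the knockout and 102.5 and 65.0 in the vector, and 23.5 and 15.95, 82.1 and 56.6, and 59.3 and 58.4 TPM in mT69a. The knockout was higher in 4 of 4 libraries, by 2.23 (SE 0.22, adjusted p = 0.000654) in mT6 and 1.72 (SE 0.21, adjusted p = 0.000702) in mT69a. With the vector it did not differ past the threshold from the knockout (0.56, adjusted p = 0.249 in mT6), and against the control it was higher by 2.79 (adjusted p = 8.36e-05) and 1.72 (adjusted p = 0.000495). None of these calls was lost when single libraries were left out. Of the myeloid genes on the immune list, Cd14 had 4.72 to 11.3 TPM and Cd68 2.1 to 14.2 TPM, while Itgam did not exceed 0.18 TPM and Csf1r 0.16 TPM in a library; their part in the Ly6g values was not tested.

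Slurp1, which encodes a secreted modulator of nicotinic receptors and starts 9.5 kb from the Psca start, changed in both directions in both lines. Its TPM in mT6 was 6.05 and 6.60 in the control, 20.2 and 18.4 in the knockout and 8.54 and 3.18 in the vector. In mT69a it was 0.51 and 1.13, 3.9 and 1.52, and 1.8 and 0.99 TPM in the same order. The knockout and vector of mT69a thus overlapped in TPM. It rose in the knockout by 1.72 (SE 0.23, adjusted p = 0.00354) in mT6 and 1.304 (SE 0.27, adjusted p = 0.0147) in mT69a, and fell with the vector by -1.3 (SE 0.24, adjusted p = 0.0159) and -1.16 (SE 0.28, adjusted p = 0.0425). The last of these was lost in 10 of 12 fits that left out 1 library. Slurp1 overlaps Them6 on the other strand, which itself fell with the vector in mT69a (-0.75, adjusted p = 0.0417), so reads of the pair may be divided differently if strand was not used. Lynx1, a membrane-bound nicotinic receptor modulator, rose in the knockout by 0.90 (SE 0.17, adjusted p = 0.0172) in mT6 and 0.66 (SE 0.17, adjusted p = 0.0389) in mT69a, calls lost in 3 and 6 of 12 fits that left out 1 library. Averaged over the lines it fell with the vector by -0.47 (SE 0.12, adjusted p = 0.0375), a call lost in 8 of 12.

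Ly6c1 and Ly6c2, markers of monocytes and some endothelium, rose in the mT6 knockout by 1.59 (SE 0.29, adjusted p = 0.0174) and 1.86 (SE 0.41, adjusted p = 0.0393); the Ly6c2 call was lost in 11 of 12 fits that left out 1 library. Ly6c1 reached 842 and 578 TPM in that knockout from 305 and 166 in the control, while Ly6c2 stayed at or below 1.45 TPM in every library. Their transcripts share 32.8% and 14.4% of 50-base words with other genes, which for both include Ly6a and each other. Their values and that of Ly6a are therefore not independent. Lypd1, a gene related to Lynx1, rose on average by 2.35 (SE 0.45, adjusted p = 0.013), from 0.33 and 1.05 TPM to 7.29 and 3.59 in mT6 and from 0.14 and 0.06 to 3.63 and 1.11 in mT69a. It overlaps Gpr39 on the other strand.

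Ly6f and Lypd5 were the 2 of these genes that rose with the vector against the knockout. Ly6f, at chr15:75268421-75272235, had 0 and 1 counts in the mT6 knockout and 6 in each mT6 vector library, and 2 and 0 in the mT69a knockout against 38 and 22 in the mT69a vector (adjusted p = 0.00136 for the average over the lines). Lypd5 was almost confined to mT69a, with 1.76 and 0.88 TPM in the control, 5.08 and 1.65 in the knockout and 44.3 and 28.0 in the vector, a log2 rise from knockout to vector of 3.64 (SE 0.41, adjusted p = 0.00112). No mT6 library exceeded 0.64 TPM. Lypd8, known from mouse colon epithelium, where it binds bacterial flagella, also had its highest levels in mT69a. It had 15.5 and 15 TPM in the mT69a control, fell to 5.76 and 1.83 in the knockout (-2.18, SE 0.52, adjusted p = 0.0289) and was 1.14 and 0.78 in the vector, against at most 1.43 TPM in an mT6 library. The knockout call was lost in 5 of 12 fits that left out 1 library. Its knockout effect differed between the lines (-4.55, SE 0.92, adjusted p = 0.0161).

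Between the controls, 2 of the 14 other family genes were higher in mT69a and 3 lower, where 28.2% of all genes passed. Ly6g6e was lower in the mT69a control than in the mT6 control (-2.47, SE 0.56, adjusted p = 0.0087). It overlaps Ly6g6d on the other strand. Ly6g6c, Ly6g6d, Lypd6b and Spaca4 passed in none of the 11 contrasts, with levels between 0.25 and 9.04 TPM. The 23 family genes that did not pass the filter reached at most 2.13 TPM in any library.

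**Figure D4:**
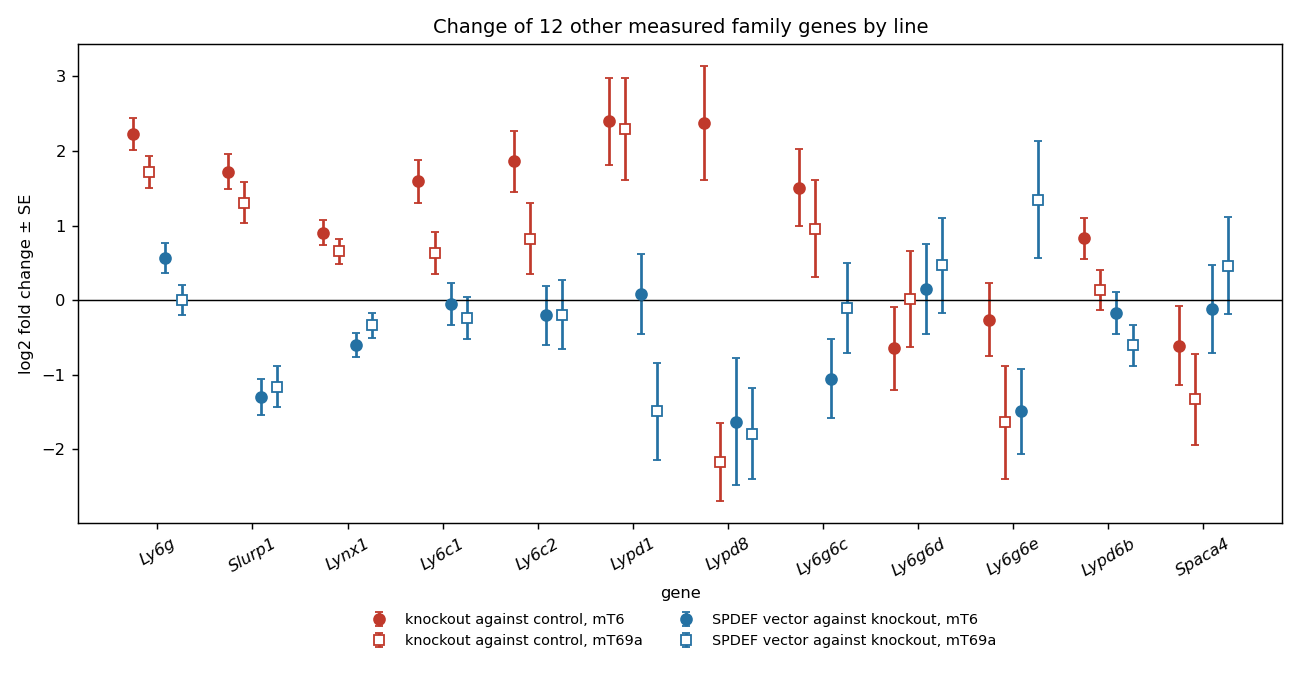
Log2 fold change with its standard error for 12 of the 14 other measured family genes, with colours and symbols as in the plot of the 7 genes; Ly6f and Lypd5, with libraries at or near 0, are left out. Ly6g, Slurp1, Lynx1, Ly6c1, Ly6c2 and Lypd1 lie above 0 in the knockout of both lines, and Slurp1 and Lynx1 below 0 with the vector.

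Around the chromosome 15 genes, 27 genes not on the family list were measured within 1000 kb. In the average over the lines, none rose and 2 fell in the knockout (median -0.002; 5.6% of all genes passed), and 2 rose and 1 fell with the vector (median -0.003; 7.77%). The neighbours past the threshold were BC025446, which fell in the knockout (-1.12, adjusted p = 0.0154) and rose with the vector (1.92, adjusted p = 0.000453), Gsdmd (-0.66 in the knockout, adjusted p = 0.00759), Tsta3 (1.01 with the vector, adjusted p = 7.53e-05) and Them6 (-0.52 with the vector, adjusted p = 0.0299). Values of the family genes were not uniform along the cluster. Psca, Slurp1, Lypd2, Lynx1 and Ly6d, whose starts lie within 47.2 kb, had positive knockout and negative vector values in the average over the lines, not all past the threshold. Them6, which lies in the same stretch, and Jrk and Arc just before it had the same signs (0.31 and -0.52, 0.18 and -0.46, and 0.32 and -0.35), of which the Them6 vector value passed. Ly6e, Ly6a, Ly6c1, Ly6c2 and Ly6g, from 240.2 to 440.4 kb away, had knockout values between 0.13 and 1.97. Their vector values lay between -0.20 and 0.28. All of them except Ly6g thus had the same signs as the nearer genes, with vector values closer to none. In mT6 taken by itself, the knockout value of Lypd2 was negative (-0.21). Within 200 kb of Plaur and Lypd3, 1 of 11 other measured genes rose in the knockout on average, Cadm4 (1.38, SE 0.21, adjusted p = 0.00363). Cadm4 and Ethe1 fell with the vector. From control to knockout Cadm4 went from 0.88 and 1.15 TPM to 7 and 4.38 in mT69a. In mT6 it went from 3.09 and 2.07 TPM to 4.38 and 3.17.

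**Figure D5:**
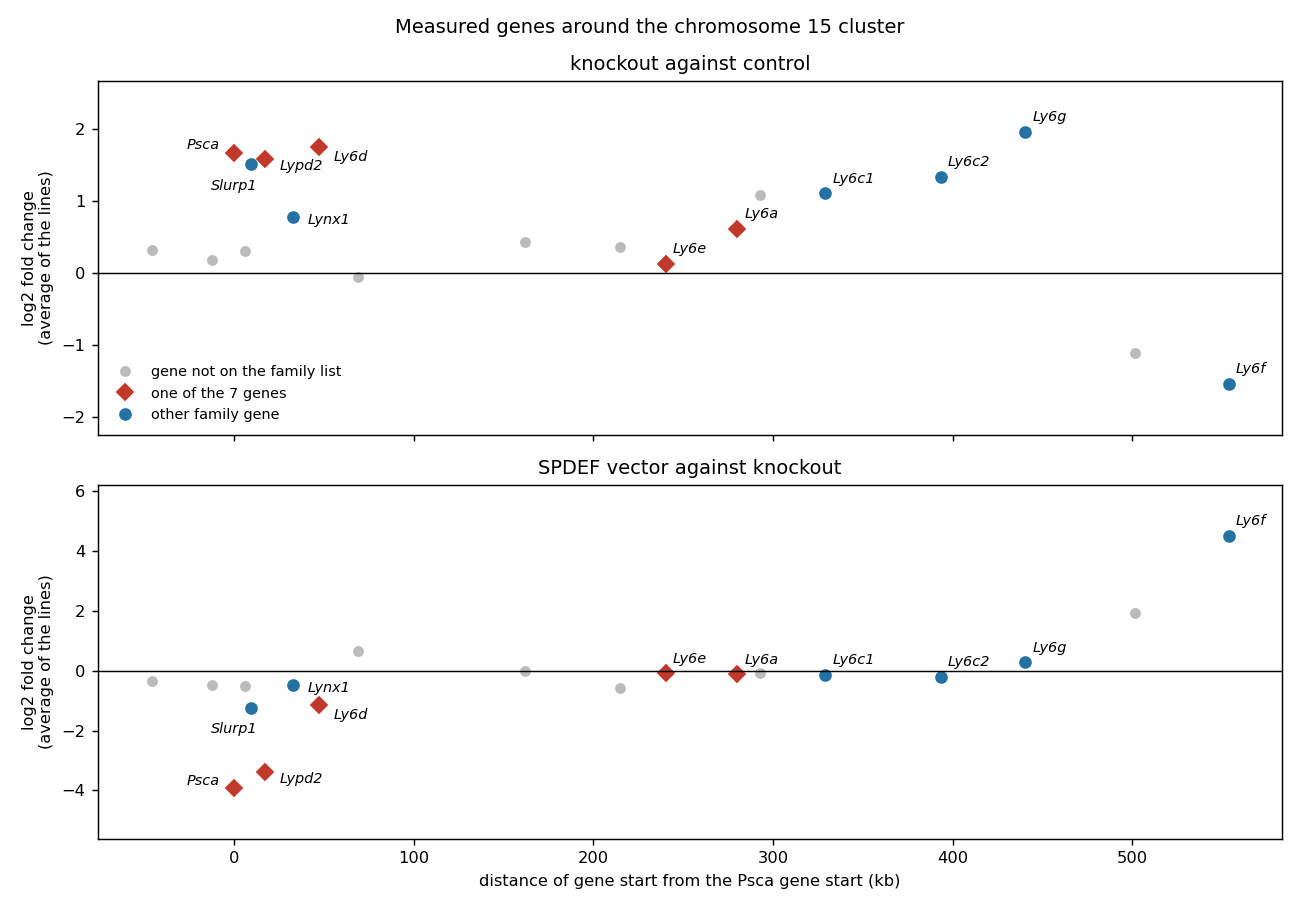
Log2 fold change averaged over the lines for every measured gene that starts from 100 kb before to 650 kb after the Psca start, against distance in kb, for knockout against control (top) and SPDEF vector against knockout (bottom). Red diamonds are 5 of the 7 genes, blue circles other family genes and grey circles genes not on the family list; Psca and Lypd2 lie near -4 and -3 with the vector and Ly6f at 4.52.

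Proteins that work with the urokinase receptor were listed separately, as components of plasminogen activation and integrins, and 16 of 23 were measured. In the knockout 4 rose in mT69a (8.6% of all genes passed), with a median of the list of 0.35 against -0.005 for all genes. In mT6 1 rose (3.23% of all genes passed). S100a10, a plasminogen-binding protein, rose in both lines, by 0.71 (SE 0.14, adjusted p = 0.0259) in mT6, a call lost in 7 of 12 fits that left out 1 library, and 0.96 (SE 0.14, adjusted p = 0.00205) in mT69a. The integrins Itga3 (0.79, adjusted p = 0.0144) and Itgav (0.62, adjusted p = 0.0359) rose in the mT69a knockout, as did Itga5. Itga5 was listed at 0 in both mT69a controls and at 0.27 and 0.16 TPM in the knockout. In mT6 Itga5 went the other way, from 0.34 and 0.6 TPM in the control to 0.05 and 0.14 in the knockout, short of the threshold. Of the genes reported here, Itga5 and Itgb5 rose and S100a10 and Itgb6 fell with the vector against the knockout, averaged over the lines (7.77% of all genes passed). Plau, which encodes urokinase, was between 1.63 and 16.6 TPM and passed in none of the 11 contrasts. In mT69a it had 8.89 and 7.7 TPM in the control, 16.6 and 9.9 in the knockout and 4.71 and 2.47 in the vector. In mT6 it had 8.13 and 3.27, 9.4 and 4.65, and 7.57 and 1.63 TPM in the same order.

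The enzymes that make, attach and trim GPI anchors were all measured, 30 of 30. In the knockout 1 of them passed, Pigc, lower by -1.14 (SE 0.21, adjusted p = 0.0167) in mT6, where 3.23% of all genes passed. None passed in mT69a (8.6% of all genes), nor with the vector against the knockout in either line (2.69% and 4.25%). With the vector against the control, 2 were lower in mT6 (8.61%) and 1 was higher in mT69a (12.4%). In edgeR's test, 5 of the 30 had an unadjusted p below 0.05 in the mT6 knockout and 2 in the mT69a knockout. With the vector against the knockout these numbers were 4 in mT6 and 2 in mT69a, and against the control 4 in each line. Of 16 nicotinic receptor subunits 2 were measured, and neither passed in any contrast; 1 had an unadjusted p below 0.05 in the mT6 knockout and in the mT6 vector, each against the control.

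For each of the 7 genes, the 3 genes with the most similar pattern were found by Pearson correlation of log2 CPM over the 12 libraries after centring each line. Psca was most like Shc1 (0.96), Serpinb1a (0.96) and Zfp185 (0.95), and Lypd2 most like Muc4 (0.94), Otop2 (0.94) and Bmp3 (0.93). Ly6d was most like Ctsh, Tmco4 and Ppfibp1 (each 0.94), Lypd3 most like Nfe2l3 (0.93), Tmco4 and Itgav (each 0.89), and Plaur most like Runx2, Wnt7a and Proser2 (each 0.96). Ly6a was most like Mfsd2a (0.97), Ly6c1 (0.96) and Nckap1 (0.96), and Ly6e most like Ube2l6 (0.96), Mitd1 and Gbp3 (each 0.93). Ube2l6 and Gbp3 are known interferon-responsive genes. The Ly6e correlations were weaker in mT6 than in mT69a, at 0.88 and 0.98 with Ube2l6, 0.729 and 0.984 with Mitd1, and 0.725 and 0.974 with Gbp3. Gbp3 was highest, at 2.21 TPM, in knockout replicate 1 of mT69a, the library with the highest summed interferon genes. The correlation of Ly6a with Ly6c1 includes the sequence they share. Among the 7 genes themselves the highest values were 0.79 for Ly6a with Ly6d, 0.75 for Lypd3 with Ly6d and 0.69 for Psca with Lypd2, and the lowest -0.04 for Lypd2 with Ly6a. All these correlations share libraries, depth and replicate numbers and are given as a description.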

How the data were processed

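Total RNA of 12 organoid libraries was sequenced after a stranded total RNA preparation, per the labels. The authors aligned reads with STAR 2.5.2b and counted with RSEM 1.3.0 on GRCm38.p6, with FastQC 0.11.8 also named, per the submitters' processing notes; the settings are not given in the sources used here. The deposited gene tables hold RSEM expected counts and TPM, and the deposited transcript tables hold expected counts and the percent of a gene's transcripts that each isoform takes. Gene symbols came from GENCODE M21, which matched 53620 of 53715 identifiers; the rest held 0.0109% of counts. Expected counts were rounded and tested with edgeR 4.0.16 (R 4.3.3): trimmed mean of M values scaling, the default filter by group (14473 genes), 6 group means, robust quasi-likelihood fit (6 residual degrees of freedom; the common biological variation was 19.2%) and Benjamini-Hochberg adjustment over all genes at 0.05. SE is the standard error of the log2 fold change, from a spread that the 6 groups shared. Totals ran from 9094295 to 28903831, and 3 counts in a library correspond to 0.104 to 0.33 CPM. Count ratios carry exact 95% intervals that cover counting error only.

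The 7 genes and all lists were chosen with earlier results of these data known. Genes named from a list are those past the threshold, at most the 4 largest per comparison, and every measured family gene is named. Same-numbered replicates deviated together in all 15 pairs of groups (correlation 0.205 to 0.531 over 14473 genes). The main fit had no term for the replicate number, so its SE and calls include any shift between the replicates. A fit with the replicate number as a block, which takes the numbers to pair the samples, was an alternative. Others were other size factors, no filter, DESeq2 1.42.0, limma 3.58.1 on log2(TPM + 1) or log2(TPM + 0.1), each line alone, and each library left out. The main edgeR script was tested on simulated data. Promoters are RefSeq sequences on GRCm38.p6 for the genes named. One gene on the list of urokinase receptor partners is not reported here.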

Additional observations from a re-analysis of the deposited data

Results flagged for a closer look

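The response of Lypd2 to the Spdef knockout differed between the lines, with a log2 difference of 3.59 (mT69a minus mT6, SE 0.80, adjusted p = 0.0269 in edgeR's quasi-likelihood test). Lypd2 was selected on earlier results of these same libraries, so this value is a description and supports nothing further. In mT69a both knockout libraries, with 31 counts each, exceeded the control libraries with 0 and 6, and in mT6 the knockout and control libraries overlapped in CPM, the scale of the test (54.1 and 67.2 against 61.5 and 78.6), though not in TPM (177 and 188 against 194 and 232). The call was kept in 7 of 12 fits that left out 1 library, with values from 2.58 to 8.19. It was lost without mT6 control replicate 2, either mT6 knockout library, mT69a control replicate 1 or mT69a knockout replicate 2.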

How the results depend on the processing

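The number of the 7 genes past the threshold moved in every comparison under at least 1 alternative; the cause was not tested. Without a filter on low counts it was 5 in place of 1 for the mT69a knockout, 4 in place of 2 for the vector against the knockout in mT69a and on average, 2 in place of 1 for vector against control in mT69a, 6 in place of 2 for the average knockout, 5 in place of 3 between the controls, and 1 in place of 0 for the line difference with the vector. DESeq2 gave 2 for the mT69a knockout and 5 for the average. The replicate block gave 4 and 5 for the same comparisons, and it lost none of the 7 genes' calls. On log2(TPM + 0.1) the count was 1 for the mT6 knockout, 0 for the mT69a knockout, 1 for the vector against knockout in mT6, in mT69a and on average, 1 for vector against control in mT6 and 0 for the line difference in the knockout. On log2(TPM + 1) it was 1 for the mT6 knockout, and without a filter 0 there, 1 for vector against control in mT6, 0 in mT69a and 1 for the average knockout. Each line fitted alone gave 0 for the mT6 knockout, 2 for the mT69a knockout and 1 for vector against control in mT6. Leaving out single libraries gave 0 to 2 for either knockout, 1 to 2 for the vector against knockout in either line, 1 to 3 and 0 to 2 for vector against control in mT6 and mT69a, 1 to 4 and 2 to 3 for the averages, 0 to 1 for the knockout line difference, 0 to 0 for the vector line difference and 2 to 4 between the controls.

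Signs changed only for values that were not past the threshold. Over the fits that left out 1 library, Plaur ran from -0.546 to 0.687 in the mT6 knockout and from -1.44 to 0.168 and -1.305 to 0.203 for the mT6 vector against knockout and control, from -0.242 to 0.227 for vector against control in mT69a, and from -0.191 to 0.768 between the controls. Ly6a ran from -0.379 to 0.085 and -0.246 to 0.057 for vector against knockout in mT6 and mT69a, Ly6d from -0.317 to 1.124 for vector against control in mT6, Lypd2 from -4.645 to 3.28 for vector against control in mT69a, and the Lypd3 line difference in the knockout from -0.04 to 2.428. Plaur was -0.28 without mT6 control replicate 2 and -0.55 without mT6 knockout replicate 1 in the mT6 knockout, 0.17 and 0.06 without mT6 knockout replicate 1 and vector replicate 2 for vector against knockout, and 0.18 and 0.20 without control replicate 1 and vector replicate 2 for vector against control. For vector against control in mT69a it was -0.011 with the replicate block, -0.08 on log2(TPM + 1) with or without the filter, -0.082 on log2(TPM + 0.1), and -0.13 and -0.24 without mT69a control replicate 2 and vector replicate 1; between the controls it was -0.19 without mT6 control replicate 2. Ly6a was 0.019 and 0.085 for vector against knockout in mT6 without knockout replicate 1 and vector replicate 2, 0 on average without the latter, and 0.057 in mT69a without knockout replicate 1, where Ly6e was 0.084. Without mT6 vector replicate 1, vector against control was 0.008 for Lypd3 and -0.317 for Ly6d. Lypd2 was 3.28 for vector against control in mT69a without control replicate 2, and the Lypd3 line difference was -0.04 without mT69a control replicate 1.

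Over all genes, 468 passed in the mT6 knockout, against 1808 with the replicate block, 1084 without a filter, 114 on log2(TPM + 1) and 70 with mT6 fitted alone. The TPM scale moved the median of all genes by -0.146 for vector against knockout in mT69a on log2(TPM + 1) and by -0.176 on log2(TPM + 0.1). Lypd3, the vector values of Psca in both lines and all mT69a values of Lypd2 outside the knockout are limited by counts.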
